A study of Bos taurus with 2 samples.

Results

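Clusters 12 and 3 were compared gene by gene, beyond the contractile genes. They are among the 15 graph-based clusters that the authors deposited for cultured bovine satellite cells. Both hold MYOG+ cells, and they are taken here as myocytes (cluster 12) and as early differentiating myoblasts (cluster 3). The paper calls both clusters myocytes and proposes that cluster 12 was the more terminally differentiated. The members were chosen by cluster number alone: each cell was placed in its cluster by finding the only assignment whose UMI sums equal the deposited cluster averages for every gene. A unique molecular identifier (UMI) marks 1 captured RNA molecule. The 2 clusters held 2661 of 19096 cells, 1430 in replicate 1 and 1231 in replicate 2. Cluster 12 had 627 cells (315 in replicate 1 and 312 in replicate 2) and cluster 3 had 2034 (1115 and 919).

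The cells came from the longissimus muscle of 1 Holstein bull calf aged 2 weeks, were released with pronase and were grown for 1 week in DMEM with fetal bovine serum. No cell received a treatment or a differentiation medium, so both clusters arose side by side in the same growth culture. The 2 libraries, called replicates 1 and 2, are 10x Genomics preparations of the same cells. Every error and p-value below therefore measures the spread between library preparations, and nothing here measures how animals differ. The clusters were also drawn on these same counts, so a call says that a difference exceeds the spread between libraries and is no independent evidence that the clusters are distinct.

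A satellite cell that differentiates first switches on MYOD1 and then MYOG, leaves the cell cycle for good, and then builds the contractile, calcium-release and membrane machinery of a muscle fibre while it becomes able to fuse. Myocytes are the mononucleated cells that have made this switch but have not yet fused into a myotube. The E proteins that partner MYOD1 and MYOG are held back by ID proteins, and Notch signalling through the HES and HEY repressors keeps cells undifferentiated.

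The sums behind the comparison were 6149813 and 6258678 UMIs in cluster 12 and 18929219 and 16426808 in cluster 3, out of 145631299 and 137818568 in the whole libraries. Cells of cluster 12 had a median of 18889 and 19332 UMIs, and those of cluster 3 had 16171 and 16957. Depth therefore moved with the cluster, and the median of genes detected per cell turned with it: cluster 12 had 3807 and 3887 genes against 3629 and 3751, but 1839 and 1854 against 1887 and 1903 once every cell was thinned to 5000 UMIs, which left out 9 and 5 cells of cluster 12 and 2 and 1 of cluster 3. Between 0 and 1 barcode of each cluster and library was shared with the other library. When each cell was given instead to the cluster whose average profile fitted its counts best, 96.8% and 95.2% of cluster 12 stayed there, and 88.1% and 87.5% of cluster 3 did. Of cluster 12, 17 cells moved to cluster 3, and 60 cells of cluster 3 moved to cluster 12.

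Levels of marker genes describe the clusters and are no test of the labels. The study named both clusters from muscle genes in these same counts. All 9 myocyte markers were higher in cluster 12, and their summed level was 193.4 UMIs per 10000 UMIs there against 69.6 in cluster 3. Satellite cell markers summed to 0.773 in cluster 12 and 1.196 in cluster 3. PAX7 had 0 and 0 UMIs in cluster 12 and 3 and 3 in cluster 3, too few to compare, as the sums of cluster 12 were the smaller. Markers of fibro-adipogenic progenitors summed to 19.03 in cluster 12 and 27.4 in cluster 3, with 1 of 6 tested called higher and 3 lower. Their part in the matrix results below was not tested. Pericyte markers summed to 0.134 and 0.145 and immune markers to 0.0161 and 0.0264. Smooth muscle markers were higher in cluster 12, at 8.34 against 6.72, with SMTN and ACTA2 the 2 of 6 called higher, and glial markers were at 0.529 against 0.407, with S100B, the 1 tested, called higher and the other 4 of 5 at 0. The part of these markers in the results was not tested. Markers at 0 in all 4 sums were 2 of 10 for fibro-adipogenic progenitors (CFD and PI16) and 2 of 7 endothelial (EMCN and KDR). So were 1 of 7 pericyte (RGS5) and 1 of 6 immune markers (PTPRC). The other members of these groups had UMIs in at least 1 sum. Endothelial markers summed to 0.224 and 0.0524, and the sum in cluster 12 was the highest of the 15 clusters. CLDN5, a tight junction gene and the 1 of 7 tested, was called higher (log2 fold change 2.28). It made up 0.205 and 0.235 in cluster 12 and 0.0512 and 0.0450 in cluster 3.

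Of 10811 genes that passed the filter on low counts, 1963 rose from cluster 3 to cluster 12 and 1687 fell, by the quasi-likelihood test of edgeR at a Benjamini-Hochberg adjusted p under 0.05. These are 18.2% and 15.6% of the genes tested, 33.8% together. Counts of calls in the gene groups below are to be read beside these shares. All 3650 called genes had the same direction within replicate 1 and within replicate 2. Large changes were mostly rises, with 595 genes at least 2-fold higher and 238 at least 2-fold lower, and 226 against 25 at 4-fold. Contractile genes accounted for few of the 3650 calls: 53 of 61 tested rose and 1, the tropomyosin TPM3, fell. Among 10750 other genes, 1910 rises and 1686 falls remained. The counts at 2-fold and 4-fold include the contractile genes, whose median log2 fold change was 2.437. The split depended on scaling. With plain UMI totals in place of TMM factors, 1552 genes rose and 2527 fell (38.0% of calls were rises, against 53.8%), as the median over all genes moved from -0.02 to -0.116. Log2 fold changes below are after TMM and are to be read against a median gene at -0.02, while levels are plain UMIs per 10000 UMIs of the cluster and library.

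**Figure D1:**
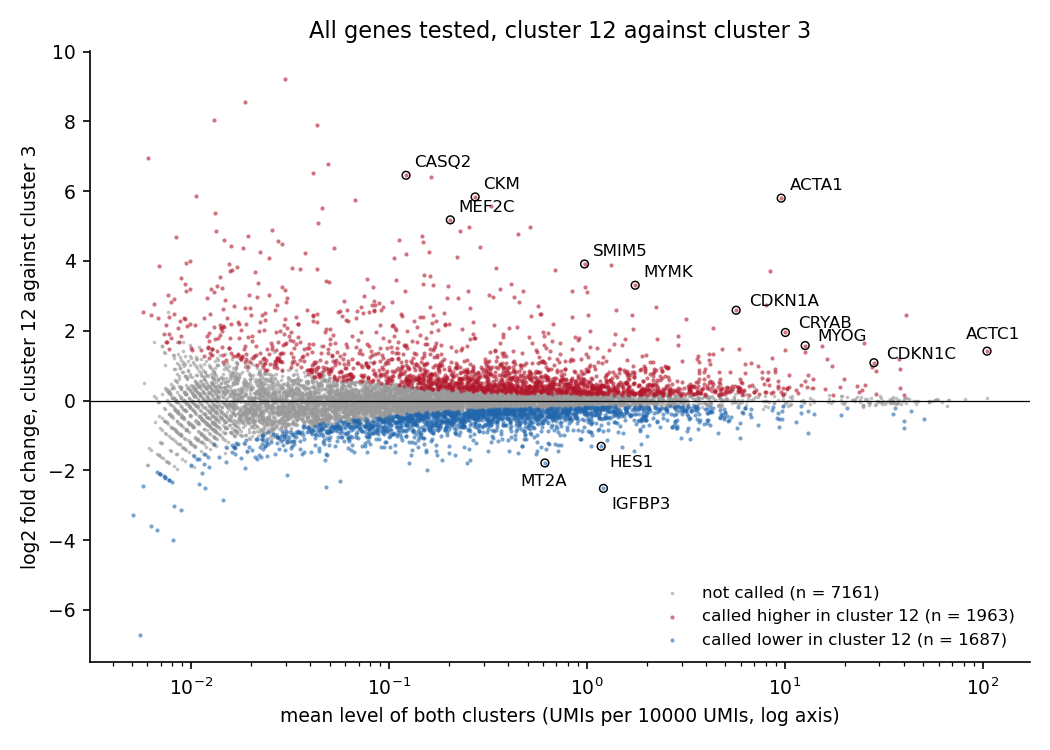
Each point is 1 of 10811 genes tested, with its mean level (UMIs per 10000 UMIs, log axis) on the x axis and its log2 fold change of cluster 12 against cluster 3 on the y axis. Coloured points passed the test (1963 higher, 1687 lower), and the rises reach further from 0 than the falls.

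Outside the contractile list, 523 called genes with a symbol rose and 360 fell at 1 UMI per 10000 or more in the cluster where they were higher. The 15 largest rises included genes of fusion, calcium release, cell cycle exit and protein folding. In each of the 15 the level in cluster 12 was the highest of the 15 clusters, against 45.2% of all called rises and 9.9% of all genes tested. The 15 were chosen for lying far above cluster 3, which favours a high rank, so this is a description. SMIM5, a small membrane protein, had 1.72 and 1.91 UMIs per 10000 in cluster 12 and 0.13 and 0.127 in cluster 3 (ENSBTAG00000010758, log2 fold change 3.91 ± 0.075 (SE), edgeR adjusted p = 1.38e-07). MYMK, the fusogen myomaker, had 3.11 and 3.20 UMIs per 10000 in cluster 12 and 0.313 and 0.373 in cluster 3 (ENSBTAG00000013242, log2 fold change 3.30 ± 0.082 (SE), edgeR adjusted p = 3.53e-07). At least 1 UMI of MYMK was found in 94.0% and 94.6% of cluster 12 cells and in 28.3% and 30.03% of cluster 3 cells, or in 66.0% and 69.1% against 13.03% and 14.2% at 5000 UMIs per cell. In cluster 9, a non-myogenic cluster with a deeper median of 22383 and 23601 UMIs, those shares were 3.75% and 1.62%. CDKN1A, the cyclin-dependent kinase inhibitor p21, had 10.2 and 9.05 UMIs per 10000 in cluster 12 and 1.75 and 1.67 in cluster 3 (ENSBTAG00000008353, log2 fold change 2.59 ± 0.077 (SE), edgeR adjusted p = 5.59e-07). ARPP21, a cAMP-regulated RNA-binding phosphoprotein, had 1.52 and 1.48 UMIs per 10000 in cluster 12 and 0.166 and 0.199 in cluster 3 (ENSBTAG00000007732, log2 fold change 3.14 ± 0.09 (SE), edgeR adjusted p = 5.28e-07).

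In these genes the 2 libraries of a cluster lay close together and the clusters were far apart. The rule that chose them, by call, direction and size of change, favours that. BFSP2, a beaded filament protein best known from the lens, had 2.44 and 2.33 UMIs per 10000 in cluster 12 and 0.422 and 0.430 in cluster 3 (log2 fold change 2.58). The small heat shock proteins HSPB2 and CRYAB rose by log2 2.35 and 1.95, CRYAB from 4.44 and 4.27 to 16.3 and 15.1 UMIs per 10000. STAC3, which holds the voltage sensor of calcium release in place, had 1.61 and 1.64 UMIs per 10000 in cluster 12 and 0.422 and 0.453 in cluster 3 (log2 fold change 1.99). ENO3, the muscle enolase, had 3.52 and 3.37 UMIs per 10000 in cluster 12 and 1.10 and 1.07 in cluster 3 (log2 fold change 1.76). The other members were LIMS2, a focal adhesion adaptor (2.19), the zinc finger gene ZNF106 (2.09), MLLT11 (2.04), the sterol reductase TM7SF2 (1.90), the adhesion receptor ADGRG1 (1.81) and the microtubule-associated TACC2 (1.80). ABR, at 1.75, was the first gene outside the 15.

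The 15 largest falls were smaller in size than the rises. IGFBP3, which binds insulin-like growth factors outside the cell, had 0.350 and 0.329 UMIs per 10000 in cluster 12 and 2.05 and 2.11 in cluster 3 (ENSBTAG00000003994, log2 fold change -2.52 ± 0.068 (SE), edgeR adjusted p = 4.65e-07). The next fall, that of the purine salvage enzyme PNP, was -1.45. HES1, a repressor induced by Notch, had 0.647 and 0.642 UMIs per 10000 in cluster 12 and 1.79 and 1.63 in cluster 3 (ENSBTAG00000000569, log2 fold change -1.31 ± 0.072 (SE), edgeR adjusted p = 9.24e-06). CSF1, the macrophage growth factor, had 1.74 and 1.92 UMIs per 10000 in cluster 12 and 4.0 and 4.22 in cluster 3 (log2 fold change -1.07). The mitotic genes BIRC5 and the histone variant H2AFZ fell (-1.10 and -1.06), the latter from 8.06 and 8.27 to 3.61 and 3.70 UMIs per 10000. Further members were CREB3L1, an endoplasmic reticulum transcription factor (-1.43), RIDA (-1.32), the actin scaffold IQGAP1 (-1.28), the adenine nucleotide carrier SLC25A5 (-1.25), TAGLN2 (-1.13), PTMA (ENSBTAG00000002549, 1 of 2 features of that symbol, -1.11), SH3BGRL3 (-1.01) and RND3 (-0.99). CAP1, at -0.98, was the first outside. In 13 of the 15, cluster 12 was the lowest of the 15 clusters, BIRC5 and SH3BGRL3 being the exceptions. Cluster 12 was the lowest in 54.5% of all called falls and in 18.4% of all genes tested. These 15 were chosen for lying far below cluster 3, which favours a low rank.

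**Figure D2:**
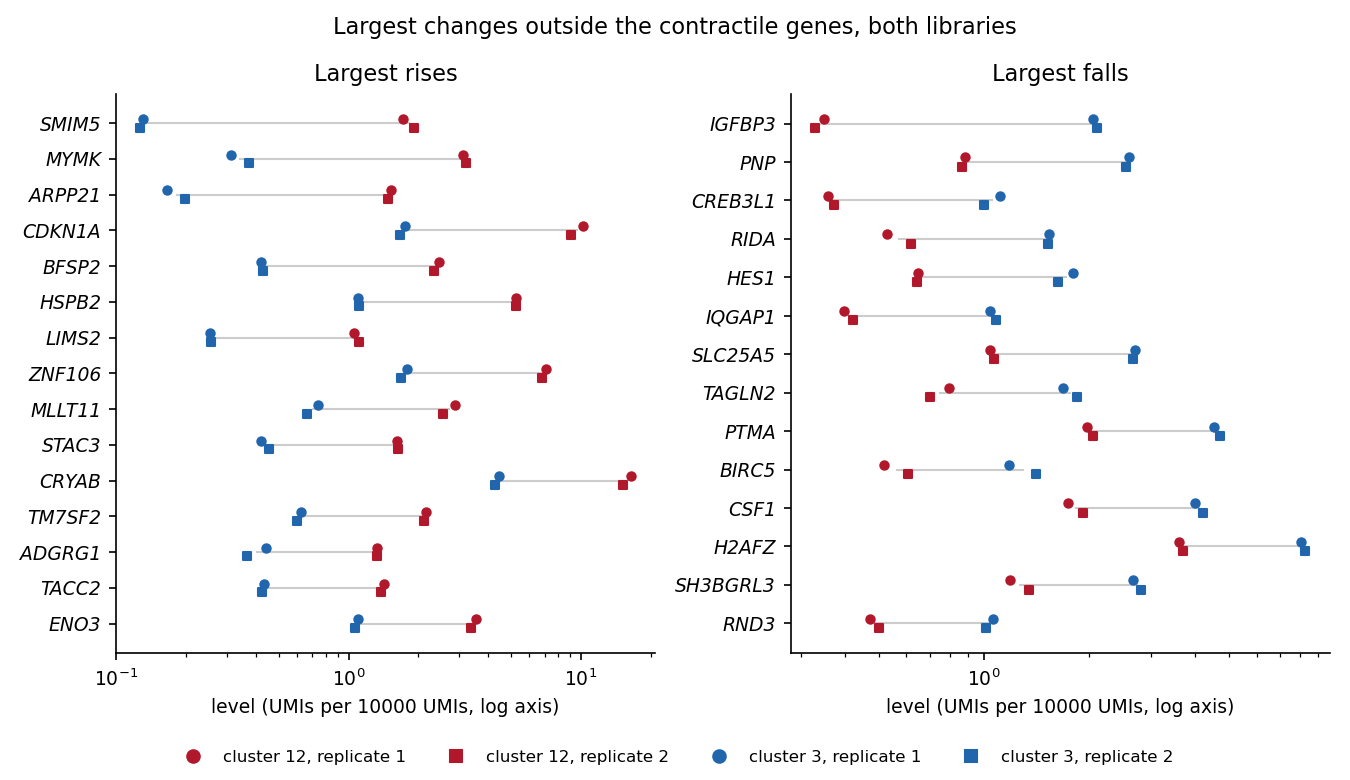
Levels (UMIs per 10000 UMIs, log axis) of the 15 largest rises and 14 of the 15 largest falls outside the contractile genes, with 1 point for each of clusters 12 and 3 in each library. For every gene shown, both points of one cluster lie apart from both points of the other, as for IGFBP3 at 0.350 and 0.329 in cluster 12 against 2.05 and 2.11 in cluster 3. The genes were chosen as called changes with the same direction in both libraries, which favours this separation.

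Among the muscle transcription factors and their cofactors, 19 of 44 tested rose and 2 fell, with a median log2 fold change of 0.338. MEF2C, the late MADS-box activator of muscle genes, changed most, from 0.0121 and 0.0110 in cluster 3 to 0.394 and 0.398 in cluster 12 (ENSBTAG00000020701, log2 fold change 5.18 ± 0.13 (SE), edgeR adjusted p = 4.05e-07). It had 242 and 249 UMIs in cluster 12 and 23 and 18 in cluster 3, and was detected in 35.9% and 34.6% of cluster 12 cells and in 1.53% and 1.85% of cluster 3 cells, against 8.36% and 8.50% in cluster 9. MEF2A had 3.36 and 3.24 UMIs per 10000 in cluster 12 and 1.82 and 1.78 in cluster 3 (ENSBTAG00000010649, log2 fold change 0.97 ± 0.055 (SE), edgeR adjusted p = 1.02e-05), and MEF2D rose by log2 0.57. MYOG, the factor that starts terminal differentiation, had 18.1 and 19.2 UMIs per 10000 in cluster 12 and 6.61 and 6.76 in cluster 3 (ENSBTAG00000006030, log2 fold change 1.57 ± 0.048 (SE), edgeR adjusted p = 5.59e-07).

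The myogenic factors that come first moved the other way. MYOD1 had 4.10 and 3.83 UMIs per 10000 in cluster 12 and 6.52 and 6.18 in cluster 3 (ENSBTAG00000002216, log2 fold change -0.58 ± 0.061 (SE), edgeR adjusted p = 0.000274), so that the ranges of the clusters did not overlap. MYF5 fell (-0.51), a call that was lost without replicate 2 of cluster 12 (-0.36, adjusted p = 0.0665 by the same edgeR fit). MYF6, the factor of mature fibres, rose by 0.92. Rises were also called for the histone methyltransferase SMYD1 (2.00), the transcriptional cofactors EYA4 (1.14) and EYA3 (0.78), the E protein TCF12 (0.56), and SOX6 (0.82), KLF5 (0.82) and ZBTB18 (0.59).

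Of 26 inhibitors of muscle differentiation tested, 10 fell and 4 rose, with a median of -0.166, and 2 rose with plain UMI totals, without replicate 1 of cluster 12 or without replicate 1 of cluster 3. The Notch targets HES1, HEY1 (-1.09) and HEYL (-0.77) fell together. ID2, which sequesters E proteins, had 0.281 and 0.321 UMIs per 10000 in cluster 12 and 0.687 and 0.685 in cluster 3 (ENSBTAG00000021187, log2 fold change -1.09 ± 0.079 (SE), edgeR adjusted p = 3.86e-05), and ID3 fell (-0.66). MYC (-0.87), the MYOD family inhibitor MDFI (-0.85) and SNAI2 (-0.79) also fell. The repressor MSC went the opposite way, at 0.62, as did both features with the symbol ZEB2 (0.47 and 0.34) and ID1, at 0.16, a call that was lost under several alternatives, among them plain UMI totals (0.06).

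Genes of cell cycle exit were divided, with 8 of 31 tested higher and 8 lower (median 0.003). Cyclin-dependent kinase inhibitors were among the rises. CDKN1C, the inhibitor p57, was the most abundant of those named, at 37.5 and 37.3 UMIs per 10000 in cluster 12 and 18.6 and 19.1 in cluster 3 (ENSBTAG00000031184, log2 fold change 1.08 ± 0.047 (SE), edgeR adjusted p = 2.65e-06). The retinoblastoma gene RB1 had 0.537 and 0.602 UMIs per 10000 in cluster 12 and 0.294 and 0.294 in cluster 3 (log2 fold change 1.05), and TOB1 and GADD45A rose by 0.76 and 0.58. Cyclins were among the falls: CCND1, a D-type cyclin that drives entry into the cycle, had 0.294 and 0.276 UMIs per 10000 in cluster 12 and 0.789 and 0.864 in cluster 3 (log2 fold change -1.44), while CCND2 (-0.83) and the kinase CDK4 (-0.66) also fell.

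Many replication and mitosis genes fell. Of 40 S phase genes tested, 22 fell (12 by DESeq2) and 2 rose (median -0.44), and of 54 G2/M genes 27 fell and 2 rose (median -0.41). S phase genes together made up 6.95 ± 0.280 of 10000 UMIs in cluster 12 (SD over n = 2 libraries), the lowest of the 15 clusters, against 10.8 ± 0.208 in cluster 3. G2/M genes together made up 24.8 in cluster 12 and 28.0 in cluster 3, but the medians per cell were 20.5 and 19.95 in cluster 12 and 19.8 and 20.3 in cluster 3. The helicase subunits MCM2, MCM5 and MCM4 fell (-1.21, -1.04 and -0.95), as did thymidylate synthase (TYMS, -0.98). Among mitotic genes, the B-type cyclin CCNB2 (-1.69), the kinetochore gene NUF2 (-1.55), HMMR (-1.51) and CDCA3 (-1.44) fell. The exceptions were the cyclin CCNE2 (1.29), the polymerase subunit POLD3 (0.42) and JPT1 (0.81), and CDCA8 (0.86), which was too low in level for the naming rule and was named after its values were seen.

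Fusion and membrane genes rose in 23 of 45 tested and fell in 4 (median 0.425), or fell in 7 with plain UMI totals and in 2 without replicate 2 of cluster 12. Besides MYMK, the caveolar genes of muscle were prominent. CAV3, the muscle caveolin, had 5.29 and 4.80 UMIs per 10000 in cluster 12 and 2.29 and 2.12 in cluster 3 (ENSBTAG00000022699, log2 fold change 1.29 ± 0.072 (SE), edgeR adjusted p = 1.02e-05), and CAVIN4 rose by log2 1.79. The membrane repair genes DYSF and MYOF rose by 0.90 and 0.63, and the junctional adhesion molecule JAM2 by 1.24. CAV1, the general caveolin, fell (-1.26), and so did the metalloprotease ADAM12 (-1.46).

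For calcium handling, 24 of 43 genes tested rose and 6 fell (median 0.628). The symbols JPH2, RYR3 and TRDN matched no feature, so the group is counted without them. The genes that changed most were close to absent in cluster 3. CASQ2, a calcium store protein of the sarcoplasmic reticulum, had 0.268 and 0.212 UMIs per 10000 in cluster 12 and 0.00264 and 0.00304 in cluster 3 (5 and 5 UMIs; ENSBTAG00000011500, log2 fold change 6.45 ± 0.27 (SE), edgeR adjusted p = 2.06e-06). ATP2A1, the fast-fibre calcium pump, had 0.226 and 0.236 UMIs per 10000 in cluster 12 and 0.0137 and 0.0128 in cluster 3 (log2 fold change 4.21). The release channel RYR1 rose by 2.40, the channel subunit CACNG1 by 4.86 and the calcium-binding S100A1 by 1.5. Among general genes, the pump ATP2A2 and calreticulin (CALR) fell (-0.41 and -0.29). The summed level of the list, 61.5 in cluster 12 and 71.8 in cluster 3, had the opposite sign to its median.

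Genes of the neuromuscular junction and ion channels rose in 14 of 18 tested, and none fell (0 at an unadjusted p under 0.05, and 0 by DESeq2). The median was 1.043. CHRNG, the fetal subunit of the muscle acetylcholine receptor, had 3.95 and 4.17 UMIs per 10000 in cluster 12 and 1.98 and 1.97 in cluster 3 (ENSBTAG00000045943, log2 fold change 1.13 ± 0.049 (SE), edgeR adjusted p = 2.47e-06). ERBB3, a neuregulin receptor, had 0.245 and 0.318 UMIs per 10000 in cluster 12 and 0.0106 and 0.0152 in cluster 3 (log2 fold change 4.55). MUSK, the agrin-responsive kinase that clusters the receptor, rose by 2.03 and ANK3, an ankyrin, by 1.07. In the dystrophin complex 9 of 24 rose and 5 fell (median 0.188), with 5 rises left without replicate 1 of cluster 3 and 2 or 3 falls without any one of the 4 sums. SVIL (2.95), DTNA (2.12) and SGCA (0.98) rose, and the widely expressed sarcoglycan SGCE fell (-1.15). The symbol of dystrophin itself, DMD, matched no feature, so the complex is counted without it.

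Muscle ubiquitin ligases, their adaptors and other ubiquitin genes rose in 13 of 22 tested and none fell in the main edgeR fit (median 0.598). At an unadjusted p under 0.05 there was 1 fall, SPSB1, and by DESeq2 0. With the library as a block 1 was called lower, and 1 with all 30 cluster sums in 1 fit. Their summed level was 15.4 against 8.76 UMIs per 10000. KLHL40 and KLHL41, adaptors that stabilise thin filament proteins, rose by log2 2.10 and 1.06 and the membrane repair ligase TRIM72 by 1.32. USP28, which removes ubiquitin and is not a ligase, was in the list too and rose by 1.98. Chaperones moved in both directions, with 15 of 43 tested higher and 10 lower (median 0.043, but -0.054 with plain UMI totals, where 17 fell). The myosin chaperone UNC45B and the small heat shock protein HSPB3 rose by 3.14 and 3.40, and HSPB1 had 9.05 and 8.87 UMIs per 10000 in cluster 12 and 4.43 and 4.63 in cluster 3 (log2 fold change 1.08). The endoplasmic reticulum chaperone HSP90B1 had 5.39 and 5.30 UMIs per 10000 in cluster 12 and 9.42 and 9.25 in cluster 3 (ENSBTAG00000003362, log2 fold change -0.71 ± 0.049 (SE), edgeR adjusted p = 3.05e-05), and HSPA5, PDIA4 and the collagen chaperone SERPINH1 of that compartment fell (-0.48, -0.45 and -0.39).

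**Figure D3:**
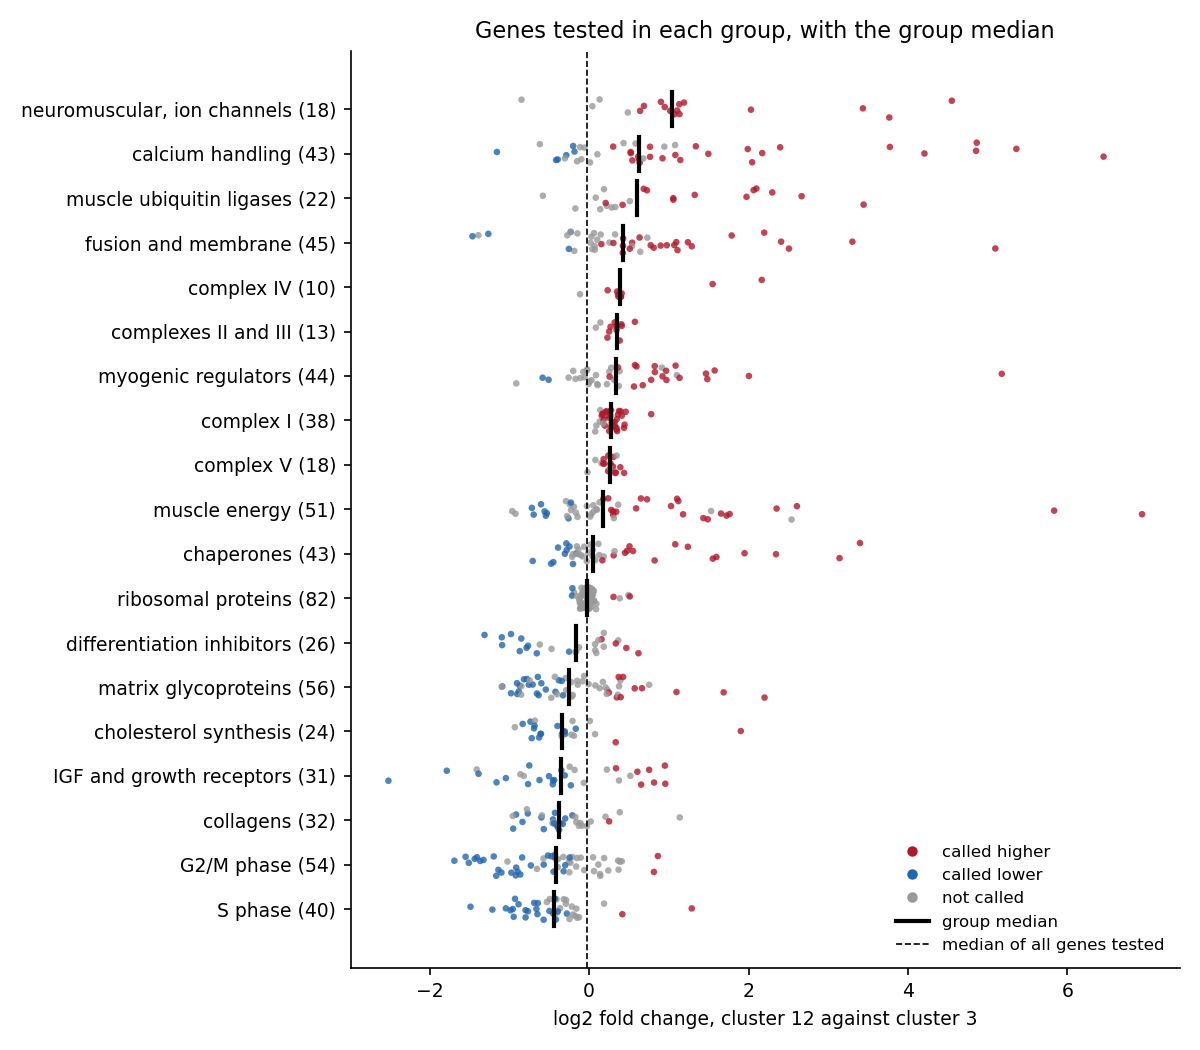
Log2 fold change of cluster 12 against cluster 3 for each gene tested in each group (points) with the group median (bar). The neuromuscular median is 1.043, the respiratory complexes lie between 0.264 and 0.382, and S phase lies at -0.44, against -0.02 for all genes tested.

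Respiratory chain subunits encoded in the nucleus rose by small amounts in most genes. Of complex I, 30 of 38 tested rose, of complexes II and III together 11 of 13, of complex IV 9 of 10 and of complex V 13 of 18, against 18.2% of all genes. None fell in the main edgeR fit (0 at an unadjusted p under 0.05, and 0 by DESeq2). The medians were 0.274, 0.344, 0.382 and 0.264. With plain UMI totals the medians were 0.178, 0.247, 0.285 and 0.167 and the rises 17, 10, 8 and 8, with 1 fall in complex IV, that of COX7A2L. Complex IV also had 1 fall with the library as a block and 1 with totals without the contractile genes. NDUFA4 had 28.9 and 27.9 UMIs per 10000 in cluster 12 and 22.3 and 21.9 in cluster 3 (ENSBTAG00000011145, log2 fold change 0.46 ± 0.051 (SE), edgeR adjusted p = 0.000345), and the complex I subunit NDUFS7 had 4.55 and 4.51 UMIs per 10000 in cluster 12 and 2.82 and 2.83 in cluster 3 (log2 fold change 0.78). COX8B, the muscle form of a complex IV subunit, rose far more, by 2.17, than COX5A (0.40) or COX8A (0.40). UQCRB of complex III rose by 0.57 and ATP5PF of complex V by 0.44. The summed level of complex I was 124.3 ± 0.783 against 106.4 ± 0.777 UMIs per 10000 (SD, n = 2 libraries), the highest of the 15 clusters.

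Of 26 mitochondrial regulators tested 1 rose and 4 fell (median -0.024), beside falls in 15.6% of all genes. With plain UMI totals 0 rose and 7 fell. The mitochondrial transcription factor TFB2M (-0.46) and the coactivator PPRC1 (-0.63) were among the falls. In muscle energy metabolism 22 of 51 rose and 8 fell (median 0.179), while the summed level was nearly level, at 152.2 against 151.6. CKM, the muscle creatine kinase, had 0.553 and 0.514 UMIs per 10000 in cluster 12 and 0.00951 and 0.0103 in cluster 3 (ENSBTAG00000013921, log2 fold change 5.83 ± 0.13 (SE), edgeR adjusted p = 2.37e-07). The phosphoglycerate mutase PGAM2 of muscle rose by 1.66 and myoglobin (MB) by 1.18, whereas PGAM1 (-0.54), the phosphofructokinase PFKP (-0.56), the lactate carrier SLC16A1 (-0.69) and CPT1A (-0.72) fell.

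Pairs of a muscle-type form and a general form of a protein were listed to follow such exchanges. The label muscle-type is that of the list. Not every form so labelled is specific to skeletal muscle, CNN1, LMNA, PFN2 and PTBP2 among them. Of 37 pairs, 30 had both forms tested. The muscle-type form rose in 22 and fell in none (1 at an unadjusted p under 0.05, the calponin CNN1, and 0 by DESeq2). With the replicate block, CNN1 was called lower (-0.48, edgeR adjusted p = 0.0153), as it was under 5 other alternatives. In the same pairs the general form fell in 13 and rose in 9. In 10 pairs the first rose and the second fell, and in 7 both rose. The muscle-type share of the pair's UMIs rose in both libraries in 23 of the 30 pairs. It did not for EEF1A2, PFN2, CNN1, TLN2 and PTBP2, nor for COX7A1 and TUBA4A, although the last 2 were called higher. Near-identical copies can lose reads that map to both, which was not tested. SLC25A4 made up 89.5% and 88.5% of the UMIs of the SLC25A4 and SLC25A5 pair in cluster 12, against 55.1% and 54.5% in cluster 3. CAV3 made up 92.8% and 92.6% of the caveolin pair with CAV1, against 69.7% and 67.1%. UNC45B went from 22.3% and 23.4% of its pair with UNC45A to 76.6% and 73.6%, and the cofilin CFL2 from 13.6% and 12.9% of its pair with CFL1 to 30.9% and 28.2%. CKM reached 40.4% and 40.0% of its pair with CKB, from 2.48% and 2.47%, although CKB itself rose by log2 1.12.

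**Figure D4:**
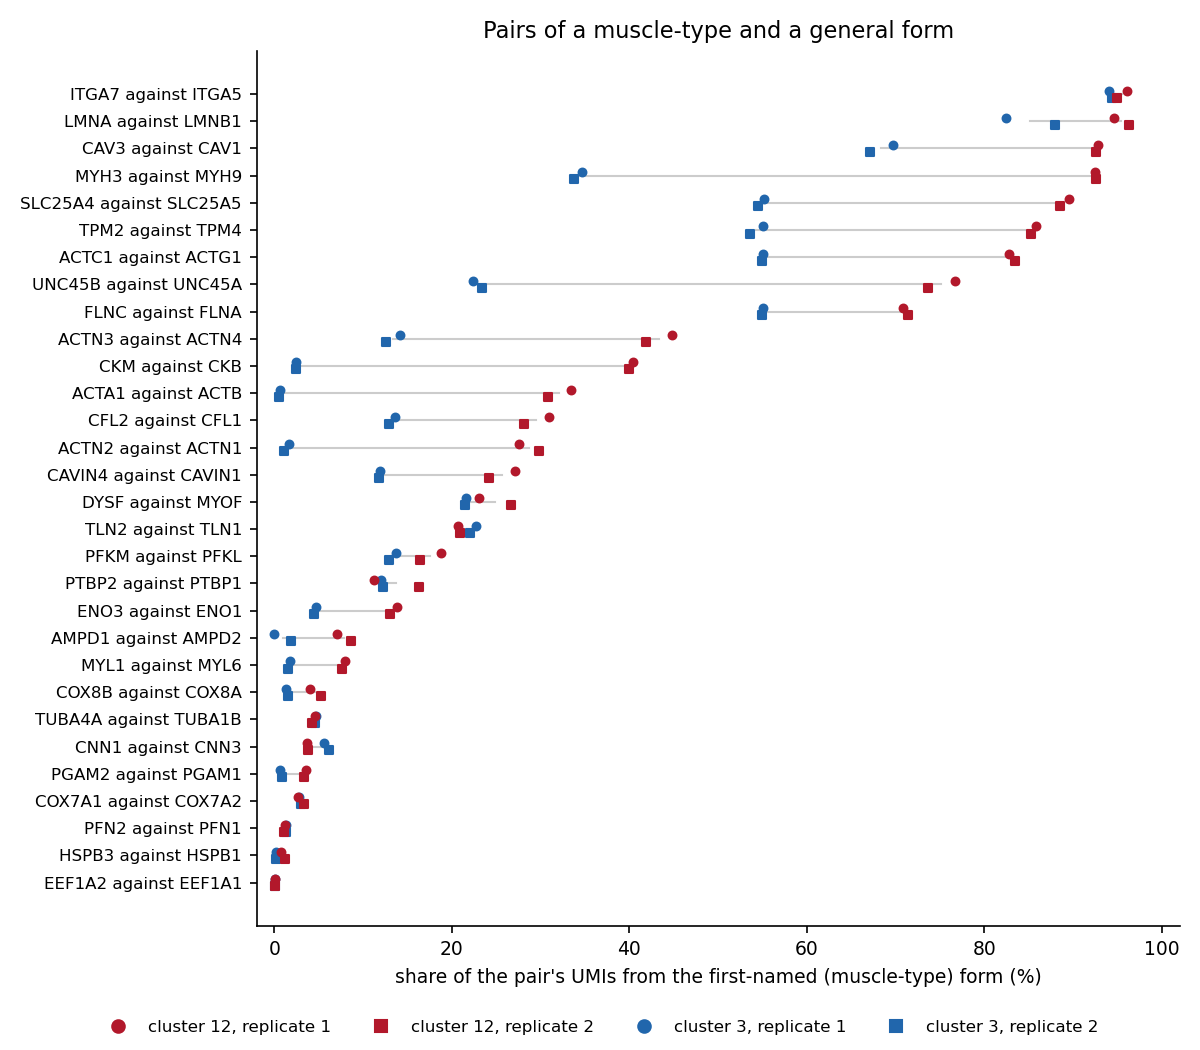
Share of each pair's UMIs (%) that came from the form listed as muscle-type, with 1 point for each of clusters 12 and 3 in each library. SLC25A4 moved from 55.1% and 54.5% in cluster 3 to 89.5% and 88.5% in cluster 12.

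The cytoskeleton outside the sarcomere showed rises and falls, with 16 of 55 higher and 22 lower (median 0.016, or -0.082 with plain UMI totals). Rises were called for the microtubule end-binding MAPRE3 (1.56), the tubulins TUBB6 (0.98) and TUBA1A (0.96), nestin (NES, 0.90) and CFL2 (0.69). Falls were called for TUBA1C (-1.09), the non-muscle myosin MYH9 (-0.86), the tropomyosin TPM4 (-0.93), CFL1 (-0.76), and the actins ACTG1 (-0.59) and ACTB (-0.54).

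Many extracellular matrix genes fell. Markers of fibro-adipogenic progenitors summed to 19.03 in cluster 12 against 27.4 in cluster 3, with 1 of 6 tested called higher and 3 lower (median -0.052). Their sum was 32.4 in cluster 9 and 191.6 in cluster 7, which the paper considers to be such progenitors, and 90.8 in cluster 8. The part of these markers in the matrix results was not tested. Of 32 genes of collagens and their processing tested, 16 fell and 1 rose (median -0.383), and the summed level was 80.1 against 99.6 UMIs per 10000. COL3A1, a fibrillar collagen, had 16.1 and 15.2 UMIs per 10000 in cluster 12 and 23.0 and 22.1 in cluster 3 (ENSBTAG00000021466, log2 fold change -0.43 ± 0.055 (SE), edgeR adjusted p = 0.000797), and COL6A2, COL15A1 and COL6A1 fell (-0.92, -0.83 and -0.77). Of 56 matrix glycoproteins 19 fell and 10 rose (median -0.255), and 5 rose without replicate 1 of cluster 3. The fibrillin FBN1 (-0.82), the proteoglycan LUM (-0.88) and the protease inhibitor SERPINE2 (-0.98) fell, while SPARCL1 rose by 2.20, the thrombospondin THBS3 by 0.57 and the basement membrane laminin LAMB2 by 0.43. Integrins were mixed (6 of 20 higher, 3 lower, or 5 lower with plain UMI totals and 1 by DESeq2), with ITGA6 at 1.96 and the muscle integrin ITGA7 at 0.42.

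Receptors and binding proteins for growth factors fell in 15 of 31 tested and rose in 7 (median -0.348), and 9 fell without replicate 2 of cluster 12. FGFR4, a fibroblast growth factor receptor of myoblasts (-1.39), the hepatocyte growth factor receptor MET (-0.75) and IGFBP2 (-0.44) fell. The ligand IGF2 had 20.7 and 25.8 UMIs per 10000 in cluster 12 and 14.4 and 18.2 in cluster 3 (ENSBTAG00000013066, log2 fold change 0.61 ± 0.12 (SE), edgeR adjusted p = 0.00578). Replicate 2 was the higher library for IGF2 in both clusters, but the clusters did not overlap. IGF2R, which clears that ligand, rose by 0.81. Summed over these genes, the level was 30.1 in cluster 12 against 25.7 in cluster 3, opposite to the sign of the median. Of 51 genes of TGF-beta, BMP, Notch and Wnt signalling 12 rose and 6 fell (3 by DESeq2), with a median of 0.118. Over all genes tested, 18.2% rose and 15.6% fell. The ligands TGFB1 (1.42) and TGFB2 (0.86), the Wnt receptor FZD2 (1.23) and the Hippo effector WWTR1 (0.95) rose, and FSTL1 (-0.90) and CTNNB1 (-0.30) fell.

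Of 24 genes of cholesterol synthesis tested 14 fell and 2 rose, with a median of -0.343. HMGCS1, an early enzyme of the pathway, had 3.01 and 3.12 UMIs per 10000 in cluster 12 and 5.37 and 5.21 in cluster 3 (ENSBTAG00000011839, log2 fold change -0.69 ± 0.049 (SE), edgeR adjusted p = 3.38e-05). ACAT2 and HSD17B7 of the same pathway fell (-0.83 and -0.74). The 2 rises were TM7SF2 and the regulator SREBF2 (0.33). Fatty acid and lipid genes were even (7 of 34 higher and 7 lower, or 12 lower with plain UMI totals), beside 18.2% and 15.6% of all genes tested. AGPAT2, an enzyme of phospholipid and triglyceride synthesis (2.16), ACLY (0.68) and the lipid droplet coats PLIN2 (0.94) and PLIN3 (0.83) rose. The desaturase FADS2 (-1.05), the synthase FASN (-0.84), FABP5 (-0.64) and ELOVL6 (-0.62) fell.

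Groups of protein synthesis and the proteasome had medians near that of all genes. Their counts are to be read beside rises in 18.2% and falls in 15.6% of all genes tested. Of 82 cytosolic ribosomal protein genes tested, 2 rose and 2 fell (median -0.027), although 39 fell with plain UMI totals and 28 with the library as a block. Translation factors fell in 10 of 63 and rose in 6 (median -0.078), or fell in 23 with plain UMI totals. The proteasome rose in 10 of 46 and fell in 4, with PSMD7 at 0.73. It rose in 20 with the library as a block, rose in 8 and fell in 8 with plain UMI totals, and fell in 1 without replicate 1 of cluster 3. Mitochondrial ribosomal proteins rose in 12 of 76 and fell in 8 (both medians 0.086), or rose in 6 and fell in 17 with plain UMI totals and rose in 7 and fell in 5 without replicate 1 of cluster 3. Lysosomal and autophagy genes rose in 10 of 30 and fell in 4 (median 0.134). The proteases CTSA (0.77) and CTSD (0.61) were among the rises, and the protease CTSB (-0.34) was among the falls. The falls were 1 by DESeq2 and without replicate 2 of cluster 12, 2 without replicate 1 of either cluster, and 6 with plain UMI totals.

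Per cell, the groups separated the clusters to very different degrees. Summed contractile levels had medians of 413 and 395.9 UMIs per 10000 in cluster 12 cells and 164 and 159 in cluster 3 cells, and 12.6% and 13.8% of cluster 3 cells lay above the 5th percentile of cluster 12. For complex I, with medians of 124.8 and 122.5 against 105.2 and 105.6, that share was 64.8% and 67.8%, and for the cell cycle exit genes, at 67.0 and 67.5 against 44.0 and 44.6, it was 48.9% and 59.3%. Summed over all cells, the last group was at 67.4 UMIs per 10000 in cluster 12 and 45.1 in cluster 3, although its median log2 fold change was 0.003. CDKN1C (37.4 against 18.9) and CDKN1A (9.62 against 1.71) together rose by more than that difference. The other genes of the group together were lower in cluster 12.

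**Figure D5:**
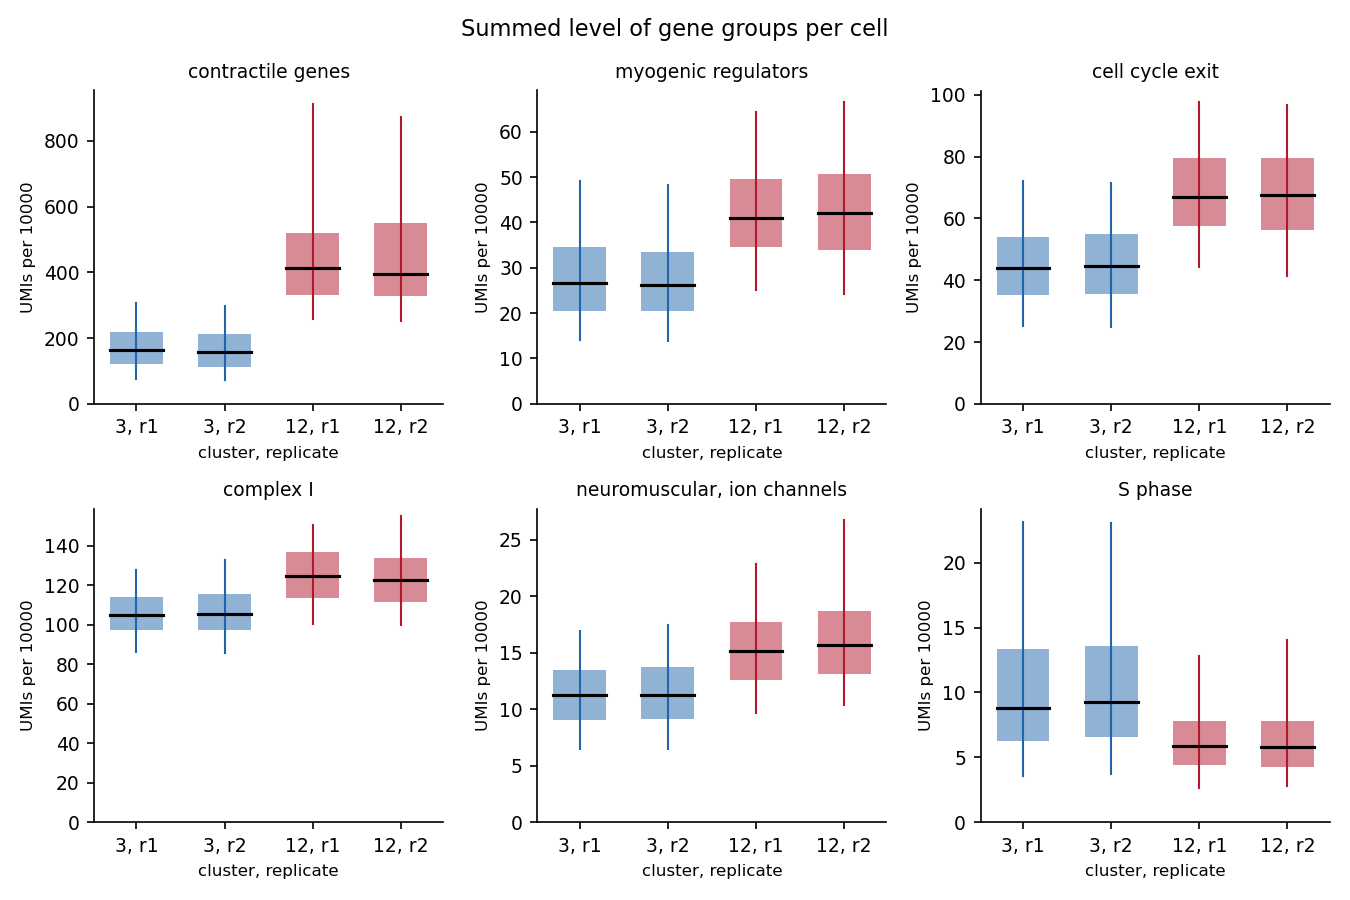
Summed level per cell (UMIs per 10000 UMIs) of 6 gene groups in clusters 3 and 12 of each library (r1 and r2), as boxes of the quartiles with whiskers from the 5th to the 95th percentile. Contractile medians are 164 and 159 in cluster 3 and 413 and 395.9 in cluster 12, while the complex I boxes overlap.

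Set against all 15 clusters, cluster 12 was the highest in 887 of 1963 rises (45.2%) and the lowest in 920 of 1687 falls (54.5%). Over all 10811 genes tested, it was the highest in 9.9% and the lowest in 18.4%. The shares among rises and falls are a description, since those genes were chosen for lying above or below cluster 3.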

How the data were processed

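Both 10x Genomics version 3 libraries were processed by the authors with Cell Ranger 3.0.2, aligned to ARS-UCD1.2 with Ensembl annotation, and combined at equal mapped reads per cell. The deposited count matrix holds whole UMI counts per gene and cell, and the deposited cluster averages are a score, UMI sums scaled to 14889 UMIs. The authors' deposited log2 fold change and p-value columns, each cluster against all other cells, were not used. Cells were placed in clusters from these averages, which matched at 252240 of 252240 gene and cluster pairs. The members and gene lists were chosen with earlier results of these data known.

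UMIs were summed per library and cluster and tested with edgeR 4.0.16 (quasi-likelihood, filterByExpr, TMM, Benjamini-Hochberg) in R 4.3.3; the sums of 1 library share that library. Over 8397 genes with at least 20 UMIs, the difference between libraries (log2) in cluster 12 correlated with that in cluster 3 at 0.396, so the library number pairs the sums and a block was an alternative. Alternatives were DESeq2 1.42.0, plain UMI totals, totals without contractile genes, no filter, all 30 cluster sums in 1 fit, cells under 2000 UMIs left out, clusters by best-fitting profile, and each sum left out in turn. Scrublet's own threshold called almost no cell, so the 8% of cells with the highest scores in each library were left out instead, a choice made after the data were seen. Doublets stayed in the values reported. In simulated counts of 10619 genes, 91.5% of 200 genes changed 3-fold were recovered, and 0.163% of unchanged genes were called. The simulation changed few genes, whereas 33.8% were called in the data. It also drew the sums without pairing, with dispersions estimated from these data. Its rates therefore do not give the error of the calls reported. Of 1241 listed symbols 1175 matched a feature, and the others were not analysed here. Reads mapping to several genes were not counted, so near-identical copies are uncertain.

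Named genes were the 15 largest called changes each way outside the contractile list with at least 1 UMI per 10000 in the higher cluster and the same direction in both libraries. To these were added up to 4 called genes each way per list at 0.2 UMI per 10000 or more, all tested regulators, inhibitors and cell cycle exit genes, the pairs of forms, the genes next to the 15th place and genes the study names. Values are UMIs per 10000 UMIs, and shares of cells cover counting error only. Results of a few genes are not reported here, 1 of the 15 largest falls among them.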

Additional observations from a re-analysis of the deposited data

How the results depend on the processing

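No gene called in one direction was called in the other in any of the 13 alternative fits. Rises numbered 1423 (DESeq2) to 2561 (replicate block), and falls 845 (DESeq2, which fell below the count of 1687 by more than 1.5 times) to 2527 (plain UMI totals). The replicate block kept every named call and moved neither count over all genes by over 1.5 times, with 2561 rises and 2411 falls. Leaving out 1 of the 4 sums gave 1589 to 1729 rises and 1242 to 1443 falls. Counts of calls in several lists moved by over 1.5 times under 1 or more alternatives, and the moves given beside them are not a complete account. With plain UMI totals the median of all genes was -0.116, and medians near 0 (chaperones, cytoskeleton) changed sign. Thinned to 5000 UMIs, the difference in median genes per cell between clusters 12 and 3 turned to -48.5, and that of the summed G2/M level per cell, near 0 before, to -0.5. With 2 libraries of the same cells, the error is technical. Folds of genes at a few UMIs in a sum, such as CASQ2, are imprecise, and differences between animals were not measured. Scrublet's own threshold, planned as an alternative, was not run as a filter because it called almost no cell. No group held 4 samples, so no search for outlying samples was made.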

Other observations

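Several further groups moved in both directions, beside rises in 18.2% and falls in 15.6% of all genes tested. Of 22 immediate early genes tested 6 fell and 4 rose (median -0.097): the stimulus-induced factors EGR1 (-0.79), IER2 (-0.71) and JUN (-0.57) fell, and JUND (0.84) and the phosphatase DUSP1 (0.55) rose. Of 44 genes of RNA binding and splicing 12 rose and 12 fell (median -0.068). RBM38 rose by log2 1.13, and HNRNPA1 and the splicing repressor PTBP1 fell (-0.79 and -0.68). Of 24 genes of stress and amino acid supply 8 fell (4 by DESeq2) and 2 rose (median -0.252), among them the serine synthesis enzymes PHGDH (-0.71) and PSAT1 (-0.56) and the glycine enzyme SHMT2 (-0.54).

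Kinesins, the motors of microtubules, rose in 6 of 27 genes and fell in 7 (median -0.013), while their summed level was 14.6 UMIs per 10000 in cluster 3 and 20.5 in cluster 12. The transport motor KIF5B had 16.4 and 15.7 UMIs per 10000 in cluster 12 and 10.4 and 10.1 in cluster 3 (ENSBTAG00000002280, log2 fold change 0.74 ± 0.054 (SE), edgeR adjusted p = 3.86e-05). In the small calcium- and metal-binding proteins 7 of 21 rose (11 with the library as a block) and 4 fell (median 0.077). MT2A, a metallothionein that binds zinc, had 0.262 and 0.259 UMIs per 10000 in cluster 12 and 0.885 and 1.04 in cluster 3 (ENSBTAG00000023659, log2 fold change -1.79 ± 0.1 (SE), edgeR adjusted p = 9.83e-06), and S100A2 rose by log2 0.96. None of 17 HOX genes rose (0 at an unadjusted p under 0.05) and 3 fell in edgeR, beside falls in 15.6% of all genes, while DESeq2 called 0 in either direction and 1 fell without replicate 1 of cluster 3. Of 16 imprinted genes 5 rose and 5 fell, while their summed level was 68.0 in cluster 12 and 43.2 in cluster 3. Most of that level came from CDKN1C and IGF2, which both rose. CDKN1C had 37.5 and 37.3 UMIs per 10000 in cluster 12 and 18.6 and 19.1 in cluster 3. IGF2 had 20.7 and 25.8 in cluster 12 and 14.4 and 18.2 in cluster 3. The sum therefore does not describe the other imprinted genes. MEST (-0.62), PEG10 (-0.65) and GRB10 (-0.50) fell, and NNAT (0.32) rose.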
